A study of Mus musculus with 12 samples.

Results

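The circRNAs of the mouse thymus at 6 weeks of age (6W) were compared with those at 2 weeks (2W) and 3 months (3M) as 1 group. The comparison used the 6 libraries of long RNA among the 12 samples of the series, which are 2 libraries at each age. The 2 libraries of 6W formed 1 group and the 4 libraries of 2W and 3M formed the other. All mice were male, wild type C57BL/6 animals without any treatment, and each library was made from whole thymus, so that thymocytes, epithelium and other cells were measured together. Ribosomal RNA had been removed and the strand kept before sequencing. The thymus grows up to 6W and then begins to shrink, and the design asks how RNA classes follow this course. Circular RNAs that are highest or lowest at the turning point are described here, each on 2 scales: against all circRNA counts of the library and against all mRNA counts of the same library. The mRNA of Rag1, the recombinase gene of immature thymocytes, lay between 7641 and 10711 CPM (counts per 1000000 mRNA counts of the library) in the 6 libraries.

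A circRNA forms when the splicing machinery joins the end of an exon to the start of the same exon or of one upstream. The product has no free ends, resists exonucleases and is usually more stable than the mRNA of its gene. It is recognised in RNA-seq by reads across the back-spliced junction. Since the mRNA and the circRNA compete for the same exons, a source gene can change its circRNA output without a change in mRNA. Circles accumulate in cells that rarely divide and are diluted in cells that divide often. The thymus holds many dividing T cell precursors.

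The table lists 6300 circRNAs with 10663 and 11117 junction counts at 2W, 18740 and 21914 at 6W, and 11125 and 15396 at 3M. Detected circRNAs had a median of 2 to 3 counts in a library, so that most single circRNAs were measured with few reads. Of the 6300, 6082 have a source gene, and these fall on 2879 genes. The mRNA totals of the same libraries were 16519753 to 22553481 estimated counts. Coordinates are given as the table lists them. The table names no genome build, and 98.8% of the 6010 circRNAs that could be placed lie inside their source gene in RefSeq GRCm38.p6.

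circRNA content was highest at 6W. The circRNA level is given as junction counts per 1000000 mRNA counts of the same library. It was 916 and 972 in the 6W libraries. The 2W libraries held 645 and 653, and the 3M libraries 663 and 707. Both 6W libraries lay above all 4 others. The mean was 944 ± 39.3 (SD, n = 2) at 6W and 667 ± 27.3 (SD, n = 4) at the other ages, a ratio of 1.42. The exact permutation test of 2 against 4 libraries gave a two-sided p of 0.133, which is the smallest this design allows and cannot pass 0.05. The second 3M library had 21789959 mRNA counts, between the 20455949 and 22553481 of the 6W libraries, and its circRNA level was 707. With mRNA and lncRNA counts as the denominator the ratio was 1.43. In bulk tissue, a change in the number of cells of a type and a change in RNA per cell cannot be told apart.

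**Figure D1:**
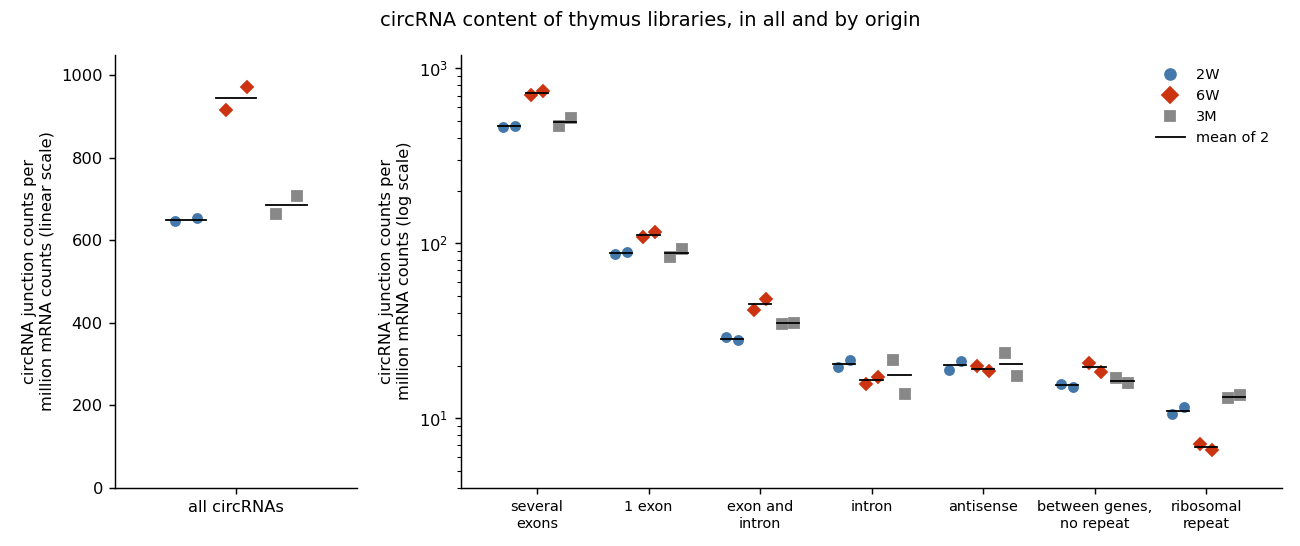
circRNA junction counts per 1000000 mRNA counts in each of the 6 libraries, for all circRNAs on a linear axis (left) and by origin on a log axis (right); each point is 1 library and each line the mean of 2. The 6W points lie above all others for circRNAs of several exons, of 1 exon and of exon and intron, and below all others for the ribosomal repeat.

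The higher content at 6W was carried by circRNAs made of annotated exons. The 4330 circRNAs that join several annotated exons had a level of 703 and 746 at 6W. At 2W they held 465 and 467, and at 3M 470 and 519. Their ratio of 1.51 made up 88.4% of the whole difference of 277, and without the circRNAs of Satb1 the values were 644 and 686 against 428 to 477. circRNAs of 1 exon (513 of them) were also above all other libraries at 6W, with 108 and 117 against 83.5 to 92.3. Those that hold exon and intron (381) reached 41.6 and 47.8 against 27.8 to 35.1.

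Intronic and antisense circRNAs did not differ in this way. Intronic circRNAs (442) had 15.6 and 17.3 at 6W and 13.8 to 21.4 at the other ages. Antisense circRNAs (416) had 19.7 and 18.6 against 17.4 to 23.5. In both classes the groups overlapped. Intergenic circRNAs (218) had 27.8 and 24.96 against 26.3 to 30.02 and overlapped as well, but the 187 of them outside a ribosomal repeat described below had 20.7 and 18.4 against 15.1 to 16.97, a ratio of 1.23 with both 6W libraries above all others. The several-exon share of all junction counts was 76.8% in each 6W library and 70.9% to 73.4% in the others, while the intronic share was 1.70% and 1.78% against 1.95% to 3.27%.

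The difference was present in short, long, rare and abundant circles. Several-exon circRNAs up to 300 bases in spliced length were higher at 6W by a ratio of 1.59, those over 300 to 500 bases by 1.62, those over 500 to 800 bases by 1.504 and longer ones by 1.38. Grouped by summed counts, those with 2 to 5 counts had a ratio of 1.65, those with 6 to 29 counts 1.47, those with 30 to 99 counts 1.49 and those with 100 or more 1.52. In each of these 8 groups both 6W libraries lay above all 4 others.

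More kinds of circRNA were seen at 6W as well. Detected were 3448 and 3654 circRNAs at 6W, 2629 and 2562 at 2W, and 2532 and 3105 at 3M. Library depth differed, so the number expected in 10000 junction counts was computed for each library, and it was 2786 and 2820 at 6W against 2453 to 2672 at the other ages. Counts of 814 circRNAs were present in all 6 libraries.

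Single circRNAs were tested with edgeR's quasi-likelihood F test if they had at least 6 counts over the libraries, which 2779 had. A call needs a p below 0.05 before adjustment and a log2 fold change beyond 1 in either direction. Scaled to circRNA totals, 148 (5.33%) were called, of which 63 were higher at 6W (2.27% of those tested) and 85 lower (3.06%). The Benjamini-Hochberg adjusted p was below 0.05 for 2 (0.072%). Scaled to mRNA totals, 178 (6.41%) were called, 155 of them higher (5.58%) and 23 lower (0.828%), and the adjusted p was again below 0.05 for 2 (0.072%). The change of scale moved the median log2 fold change from -0.03 to 0.45. The 6W libraries were both above all others for 235 circRNAs (8.46%) on the first scale and for 464 (16.7%) on the second. They lay below for 110 (3.96%) and 59 (2.12%). The split between the directions differed between scalings. With TMM factors on circRNA totals it was 91 higher and 48 lower, and with TMM factors on mRNA totals 79 and 55. DESeq2 with its own size factors, which is another test as well as another scaling, gave 16 and 36. Leaving out 1 of the 6W libraries reduced the calls from 148 to 59 or 53 on circRNA totals and from 178 to 116 or 75 on mRNA totals.

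By edgeR's test on circRNA totals, where 2.27% of all tested circRNAs were higher and 3.06% lower, 1 of the 79 intronic circRNAs was higher and 7 were lower. Of the 73 antisense ones 0 were higher and 6 lower, of the 78 intergenic ones 1 and 7, and of the 2194 of several exons 50 and 51. On mRNA totals, where 5.58% were higher and 0.828% lower, the intronic counts were 1 and 3, the antisense 0 and 0 and the intergenic 1 and 3. Those of several exons were then 131 and 13. Their median log2 fold change on mRNA totals was 0.53, that of exon and intron 0.59 and that of 1 exon 0.25, while the medians of intronic, antisense and intergenic circRNAs were -0.12, -0.17 and 0.03.

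The most counted circRNA is made by Satb1, which encodes a chromatin organiser of thymocytes. novel_circ_002652 spans chr17:51803431-51809287 on the minus strand and joins annotated exons to a circle of 673 bases. It held 307 and 248 counts at 2W, 769 and 867 at 6W, and 313 and 568 at 3M. Its level was 18.6 and 14.6 at 2W, 37.6 and 38.4 at 6W, and 18.6 and 26.1 at 3M. Both 6W values stood clear of the others, and the second 3M library was the nearest. The log2 fold change was 0.96 on mRNA totals (standard error 0.24, edgeR adjusted p = 0.0529) and 0.47 on circRNA totals. A larger circle that shares its 5′ end, novel_circ_002641 (chr17:51767892-51809287, 1609 bases), differed less. Its level was 15.4 and 9.28 at 2W, 17.5 and 17.9 at 6W, and 10.6 and 12.8 at 3M (log2 fold change 0.56, edgeR adjusted p = 0.569). The smaller circle took 61.9% and 62.2% of all Satb1 circRNA counts at 6W, 48.1% and 52.5% at 2W, and 57.0% and 60.9% at 3M. The share of the larger one was 28.7% and 28.9% at 6W and 29.8% to 39.8% at the other ages. Within the same gene, the intronic novel_circ_002657 (chr17:51827175-51827481) went the other way, with 4 and 10 counts at 2W, 0 and 1 at 6W, and 6 and 2 at 3M.

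Themis, a signalling protein of positive selection, gave the second most counted circRNA. novel_circ_000493 is a circle of 1 exon and 1052 bases at chr10:28781691-28782742. Its counts were 303 and 398 at 2W, 491 and 516 at 6W, and 309 and 457 at 3M. Its level was 24.0 and 22.9 at 6W against 18.3 to 23.4 at the other ages, so that the groups overlapped. On circRNA totals it lay below all other libraries, with 26201 and 23547 RPM (reads per 1000000 circRNA junction counts) against 27775 to 35801. The direction of this circRNA thus depended on the scale.

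**Figure D2:**
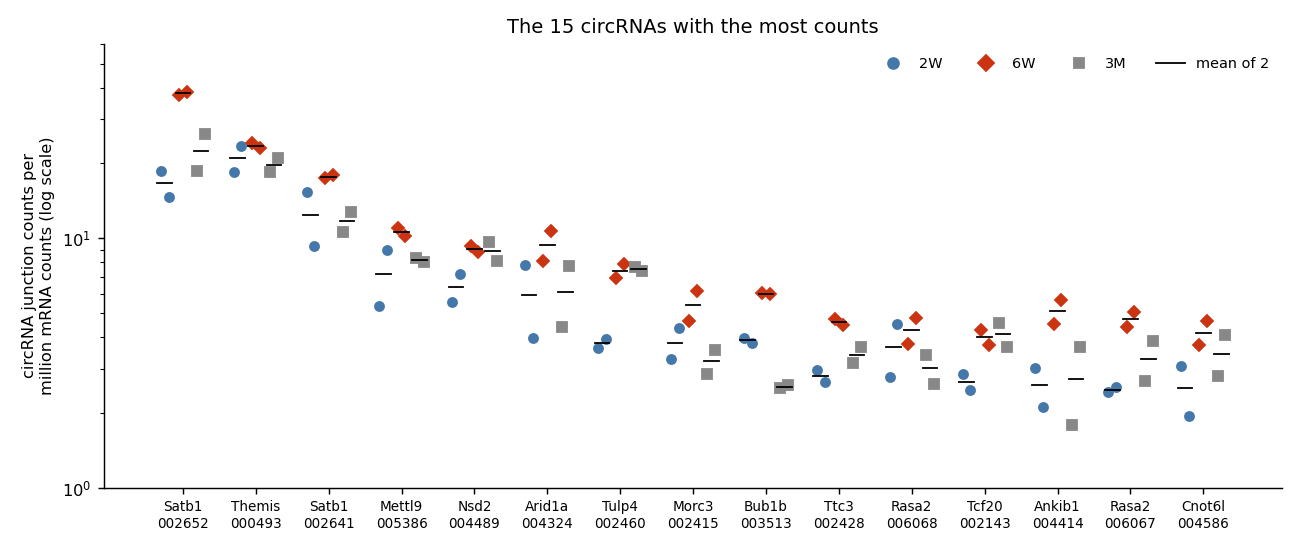
The 15 circRNAs with the most counts, in junction counts per 1000000 mRNA counts on a log axis; each point is 1 library and each line the mean of 2 libraries of an age. For Satb1 novel_circ_002652 the 6W points stand at 37.6 and 38.4, above the highest other value of 26.1, whereas those of Themis novel_circ_000493 overlap with the other ages.

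None of the 15 most counted circRNAs had a log2 fold change over 1 on mRNA totals, so that none was called. Bub1b novel_circ_003513, from the gene of a spindle checkpoint kinase, had a level of 3.995 and 3.82 at 2W, 6.01 and 5.99 at 6W, and 2.50 and 2.57 at 3M. On this scale its groups did not overlap, and the log2 fold change was 0.90 (standard error 0.29, edgeR adjusted p = 0.292). For Ankib1 novel_circ_004414 the 6W levels were 4.55 and 5.63 and the others 1.79 to 3.67. On circRNA totals the groups of the Bub1b and Ankib1 circRNAs overlapped. Nsd2 novel_circ_004489, from a histone H3 lysine methyltransferase gene, showed 9.29 and 8.82 at 6W within the 5.57 to 9.65 of the other ages. Tulp4 novel_circ_002460 was low at 2W (3.63 and 3.94) and alike at 6W (6.94 and 7.89) and 3M (7.68 and 7.39). On mRNA totals this is a rise after 2W and not a peak. On circRNA totals it was higher still at 3M, with 11596 and 10457 RPM against 7577 and 8123 at 6W.

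Peaks at 6W were named as the 10 circRNAs with the smallest p on circRNA totals among those past the threshold whose groups did not overlap. All 10 consist of several annotated exons, as do 2194 of all 2779 circRNAs tested. Of the 10, 1, that of Bbs9, has a circBase name, as have 356 of all 6300 circRNAs. Mbd2, which encodes a reader of methylated DNA, led the list. Its novel_circ_002939 (794 bases) had 4 and 4 counts at 2W, 17 and 30 at 6W, and 2 and 4 at 3M. In RPM these are 375 and 360, 907 and 1369, and 180 and 260. The log2 fold change was 1.94 on circRNA totals (standard error 0.58, edgeR adjusted p = 0.449) and 2.44 on mRNA totals (standard error 0.57, edgeR adjusted p = 0.0461). A second Mbd2 circle, novel_circ_002940, retains intron sequence and had 4, 3, 12, 8, 8 and 9 counts in the order 2W, 6W, 3M. Its log2 fold change on mRNA totals was 0.50, without passing the threshold.

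The circRNA of Bbs9, a subunit of the ciliary BBSome complex, was the other one with an adjusted p under 0.05 on mRNA totals. novel_circ_005819 is a short circle of 243 bases at chr9:22887581-22887996. It had 8 and 0 counts at 2W, 24 and 35 at 6W, and 5 and 12 at 3M. The groups stood apart, although the 2 libraries of 2W differed widely. The log2 fold change was 1.98 on mRNA totals (standard error 0.48, edgeR adjusted p = 0.0467) and 1.49 on circRNA totals. Neither the Mbd2 nor the Bbs9 circRNA kept an adjusted p under 0.05 with TMM factors, with the replicate number as a block (replicate block), with a minimum of 30 counts, or with either 6W library or the first 3M library left out.

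The other 8 peaks had at most 22 counts in any library. Mef2a novel_circ_005245, from a MADS-box transcription factor gene, had 2 and 2 counts at 2W, 14 and 22 at 6W, and 3 and 3 at 3M. That of Cdc42, a small GTPase that organises the actin cytoskeleton, had 4 and 7, 18 and 20, and 0 and 3 (novel_circ_004338). Camta1 novel_circ_004395, from a calmodulin-binding transcription activator gene, had 3 and 1, 11 and 10, and 0 and 1. These 3 circRNAs were lower at both other ages, with log2 fold changes on circRNA totals of 2.04 (Mef2a), 1.65 (Cdc42) and 2.22 (Camta1). That of Cdc42 had a mean of 502 RPM at 2W, between 937 at 6W and 97.4 at 3M. Wdr78 novel_circ_004165, from an axonemal dynein subunit gene, had 1 and 0 counts at 2W, 6 and 15 at 6W, and 2 and 1 at 3M. Canx novel_circ_000831, from the gene of the chaperone calnexin, had 0 and 1, 4 and 9, and 0 and 0. With 1 count outside 6W, its ratio of 15.4 on circRNA totals has a 95% counting interval of 2.32 to 656.

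Rnf214 novel_circ_005869 and Zfp280d novel_circ_005989 were counted at 6W alone among these libraries. The former had 5 and 4 counts there and the latter 4 and 5. These circRNAs and those of Wdr78, Canx, Camta1 and Rb1, 6 of the 10 peaks, had fewer than 6 counts outside 6W and so reached the minimum for testing only through the 6W libraries. Their counts are given as a description. Intervals and floors pool the libraries of a group, so that they cover counting error only and leave out the spread between libraries. Reads were counted without molecular identifiers.

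Rb1, the retinoblastoma tumour suppressor gene, gave circles whose few counts went opposite ways. novel_circ_001927 (chr14:73262529-73265632) had 2 and 0 counts at 2W, 12 and 7 at 6W, and 0 and 2 at 3M. novel_circ_001926, from exons further 3′ in the gene (chr14:73211604-73216779), had 3 and 4, 0 and 0, and 1 and 1. The first passed the threshold as higher on both scales and the second as lower. Each reached the minimum for testing only through the libraries where it was high, so that these values are a description. The other tested Rb1 circles, novel_circ_001928 and novel_circ_001929, had log2 fold changes of 0.84 and -0.32 on circRNA totals. Neither novel_circ_001927 nor novel_circ_001926 had an adjusted p under 0.05 by edgeR, and their difference was not tested.

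**Figure D3:**
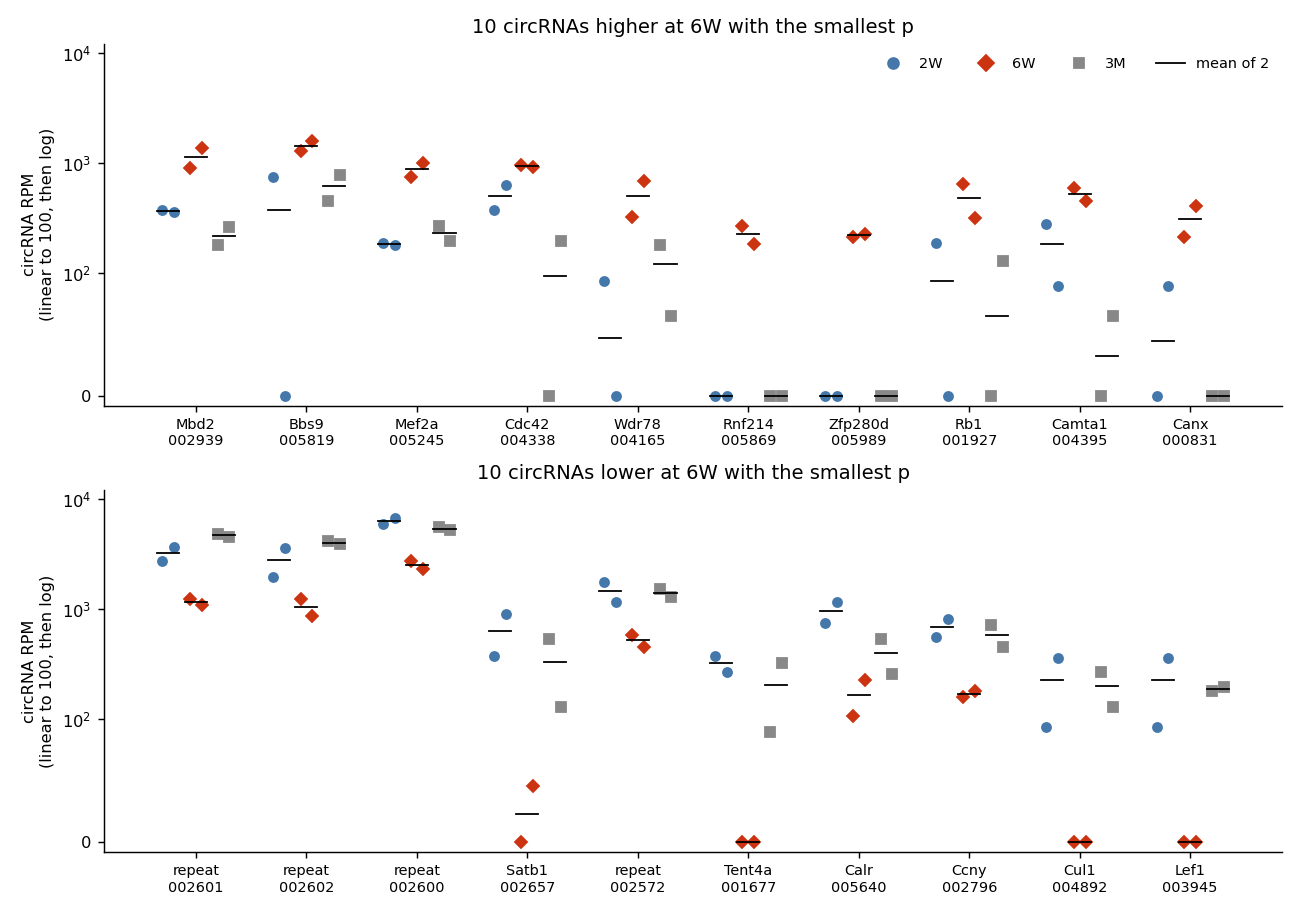
RPM of the 10 circRNAs higher and the 10 lower at 6W with the smallest p, on an axis that is linear up to 100 RPM and logarithmic above; each point is 1 library and each line the mean of 2 libraries of an age. Several circRNAs of both rows lie at 0 in 2 or more libraries, while the repeat circRNAs of the lower row are counted in every library.

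Dips at 6W were led by circRNAs of the ribosomal repeat on chromosome 17. A ribosomal RNA pseudogene (Rn18s-rs5) lies there, and 31 circRNAs are listed within 5000 bases of it, none of them with a source gene. novel_circ_002601 (chr17:39845823-39846116, plus strand) had 29 and 41 counts at 2W, 23 and 24 at 6W, and 54 and 70 at 3M. In RPM, 6W stood at 1227 and 1095 and the other libraries at 2720 to 4854. The log2 fold change was -1.77 on circRNA totals (standard error 0.36, edgeR adjusted p = 0.0027) and -1.28 on mRNA totals (edgeR adjusted p = 0.173). novel_circ_002602, shifted by a few bases from it, had a log2 fold change of -1.71 on circRNA totals (standard error 0.37, edgeR adjusted p = 0.0062) and -1.22 on mRNA totals (edgeR adjusted p = 0.292). novel_circ_002600 lies at the same coordinates as novel_circ_002601 on the opposite strand and had 63 and 74, 51 and 51, and 62 and 80 counts. Its log2 fold change was -1.21 on circRNA totals (edgeR adjusted p = 0.124) and -0.71 on mRNA totals (edgeR adjusted p = 0.548). These 3 overlap in sequence and are not independent of each other. Both adjusted p-values were over 0.05 with TMM factors and with either 6W library left out.

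Of the 18 repeat circRNAs tested, 5 were past the threshold as lower and 0 as higher on circRNA totals, where 3.06% of all tested circRNAs were lower. A log2 fold change below 0 was found for 16 of the 18, with a median of -1.12. The summed level of the repeat was 7.09 and 6.56 at 6W, 10.5 and 11.5 at 2W, and 13.0 and 13.5 at 3M. Both 6W libraries lay below all others on either scale. The libraries had been depleted of ribosomal RNA, and how well each was depleted was not tested. Without the repeat, the ratio of circRNA content was 1.43.

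The other dips rested on few counts. Calr novel_circ_005640, a circle of 1 exon from the gene of the chaperone calreticulin, had 8 and 13 counts at 2W, 2 and 5 at 6W, and 6 and 4 at 3M. On mRNA totals its groups overlapped. Ccny novel_circ_002796, an intronic circRNA of the cyclin Y gene, had 6 and 9, 3 and 4, and 8 and 7. Tent4a novel_circ_001677, from a terminal nucleotidyltransferase gene, had 4 and 3 at 2W, 0 at 6W, and 1 and 5 at 3M. With both 6W libraries pooled and set to a floor of 3 counts, it was 3.65-fold lower on circRNA totals and 2.58-fold on mRNA totals. This floor leaves out the spread between libraries. Cul1 novel_circ_004892 (cullin 1, a ubiquitin ligase scaffold) and the intronic Lef1 novel_circ_003945 (a Wnt pathway transcription factor) were also at 0 in both 6W libraries. For each the same floor gave 2.81-fold lower on circRNA totals and 1.99-fold lower on mRNA totals. These 3 circRNAs and the intronic one of Satb1 reached the minimum for testing only through the 2W and 3M libraries. Their values are a description. None of these had an adjusted p under 0.05 by edgeR.

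Snhg11 novel_circ_003667 was named by its small p on mRNA totals, but its pattern is not a dip. It had 1 and 0 counts at 2W, 0 and 1 at 6W, and 8 and 18 at 3M. The low libraries were those of 2W and 6W alike, and the 3M libraries stood alone. The RNA of this snoRNA host gene in the mRNA table was 6.18 and 4.99 CPM at 2W, 4.58 and 2.96 at 6W, and 18.8 and 7.81 at 3M.

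Counts were then summed over the circRNAs of each source gene, and 1745 genes had at least 6. Scaled to circRNA totals, 71 (4.07%) were called, 36 as higher at 6W (2.06%) and 35 as lower (2.01%). Both 6W libraries lay above all others for 8.65% and below for 3.95% of the genes. No gene passed 0.05 after adjustment, either by edgeR, where 85 did so before it, or by DESeq2. Scaled to mRNA totals, 129 (7.39%) were called, 119 as higher (6.82%) and 10 as lower (0.573%), and 6 (0.344%) passed after adjustment. With TMM factors on mRNA totals the split was 46 higher and 29 lower. DESeq2 with its own size factors gave 10 higher and 21 lower, and neither setting left a gene with an adjusted p under 0.05. On circRNA totals TMM factors gave 49 higher and 24 lower. Leaving out the first or the second 6W library gave 84 or 65 calls on mRNA totals, against 129.

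The mRNAs of the same genes did not follow. Among the 563 source genes with at least 30 circRNA counts and a tested mRNA, the median log2 fold change of the mRNA was -0.07, and 0 were called by edgeR. Among all 14805 genes tested, 103 mRNAs (0.696%) were called, 61 as higher (0.412%) and 42 as lower (0.284%). Both 6W libraries lay above all others for 8.94% of the mRNAs and below for 6.88%. Of the mRNAs of the 563 source genes, 25 lay above and 73 below, and 174 (30.9%) had a log2 fold change above 0. After adjustment 0 mRNAs passed 0.05 by edgeR, against 618 before adjustment and 12 by DESeq2 after it. The circRNAs of the 564 genes with at least 30 counts had a median of 0.51, with 466 above 0 (82.6%). Both 6W libraries lay above all others for 161 of them and below for 5, where 18.9% and 1.38% of all tested source genes did so. Across these genes, circRNA and mRNA fold changes had a Pearson correlation of 0.10 (n = 563), which is across genes that share libraries and are not independent replicates.

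**Figure D4:**
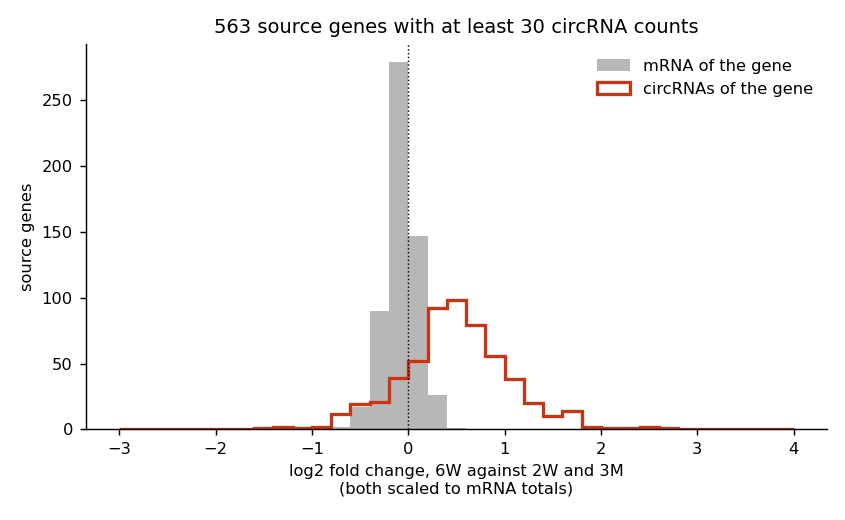
Number of source genes by log2 fold change, 6W against 2W and 3M, for the circRNAs of the gene (red line) and its mRNA (grey bars), over the 563 genes with at least 30 circRNA counts, both scaled to mRNA totals. The mRNA bars peak just below 0 (median -0.07), and the circRNA line is wider and shifted to the right (median 0.51 over 564 genes).

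The difference in content was spread over many genes. Satb1 alone accounted for 9.32% of it, the 10 source genes with the largest difference for 19.96% and the 100 largest for 54.2%. After Satb1 came Morc3 (1.64%), Themis (1.26%), Arid1a (1.24%), which encodes a SWI/SNF chromatin remodelling subunit, and Mettl9 (1.22%).

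On mRNA totals, 6 source genes had an adjusted p under 0.05, and all of them were higher at 6W. Bbs9 (6 circRNAs) had a level of 1.03 and 0.881 at 2W, 2.49 and 2.84 at 6W, and 0.536 and 1.38 at 3M (log2 fold change 1.45, standard error 0.33, edgeR adjusted p = 0.0188). Paip2, an inhibitor of the poly(A)-binding protein, had 1.69 and 0.646, 2.44 and 2.31, and 0.476 and 0.734 (1.42, standard error 0.34, edgeR adjusted p = 0.0283). The first 2W library stood high among the controls. Mbd2 had 0.484 and 0.411, 1.52 and 1.77, and 0.596 and 0.597 (1.64, standard error 0.41, edgeR adjusted p = 0.0331). Rabep1, an effector of the endosomal GTPase Rab5, had 1.82 and 1.29, 2.79 and 3.50, and 0.715 and 1.61 (1.20, standard error 0.31, edgeR adjusted p = 0.0380). Mef2a, with a single circRNA, had a log2 fold change of 2.53 (standard error 0.66, edgeR adjusted p = 0.0468). Satb1, with 29 circRNAs, had 38.6 and 27.7 at 2W, 60.8 and 61.8 at 6W, and 32.7 and 42.8 at 3M (0.79, standard error 0.21, edgeR adjusted p = 0.0474). In each of the 6 genes both 6W libraries were above all others on this scale. Each lost its adjusted call when either 6W library was left out. Without the second 2W library 2 genes passed after adjustment, and without the second 3M library 1 did. With a replicate block 2 passed, and without a filter on counts 3.

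circRNA was also set against the mRNA of its own gene, by fitting the summed circRNA counts with the gene's mRNA count as an offset. Of 1738 genes, 145 (8.34%) were called, 134 as higher at 6W (7.71%) and 11 as lower (0.633%). The pair of 6W libraries was above all others for 20.8% and below for 1.38%. After adjustment 6 (0.345%) passed 0.05, all of them higher. Bbs9 had 20.5 and 18.5 junction counts per 1000 mRNA counts at 2W, 62.3 and 65.6 at 6W, and 12.4 and 30.6 at 3M (log2 fold change 1.61, standard error 0.35, edgeR adjusted p = 0.0053). Its mRNA was 40.0 and 43.3 CPM at 6W and 43.2 to 50.2 at the other ages. Rabep1 had 29.1 and 20.5 per 1000 at 2W, 46.7 and 59.4 at 6W, and 11.0 and 30.3 at 3M. Pan3, a subunit of a deadenylase that shortens poly(A) tails, had 6.20 and 5.59, 9.36 and 13.4, and 2.73 and 5.39. Agtpbp1, a carboxypeptidase that trims glutamate from tubulin, had 2.53 and 3.62, 15.9 and 13.9, and 4.51 and 2.36. For Pan3, Agtpbp1, Mef2a, Rabep1 and Paip2 the edgeR adjusted p was 0.0494. The mRNA log2 fold changes of these 6 genes ran from -0.21 to 0.04, and none of them passed the threshold. With either 6W library or the first 3M library left out, 0 genes had an adjusted p under 0.05 by edgeR, and without the second 2W library 1 had. With a replicate block 1 gene and without a filter on counts 2 genes passed.

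**Figure D5:**
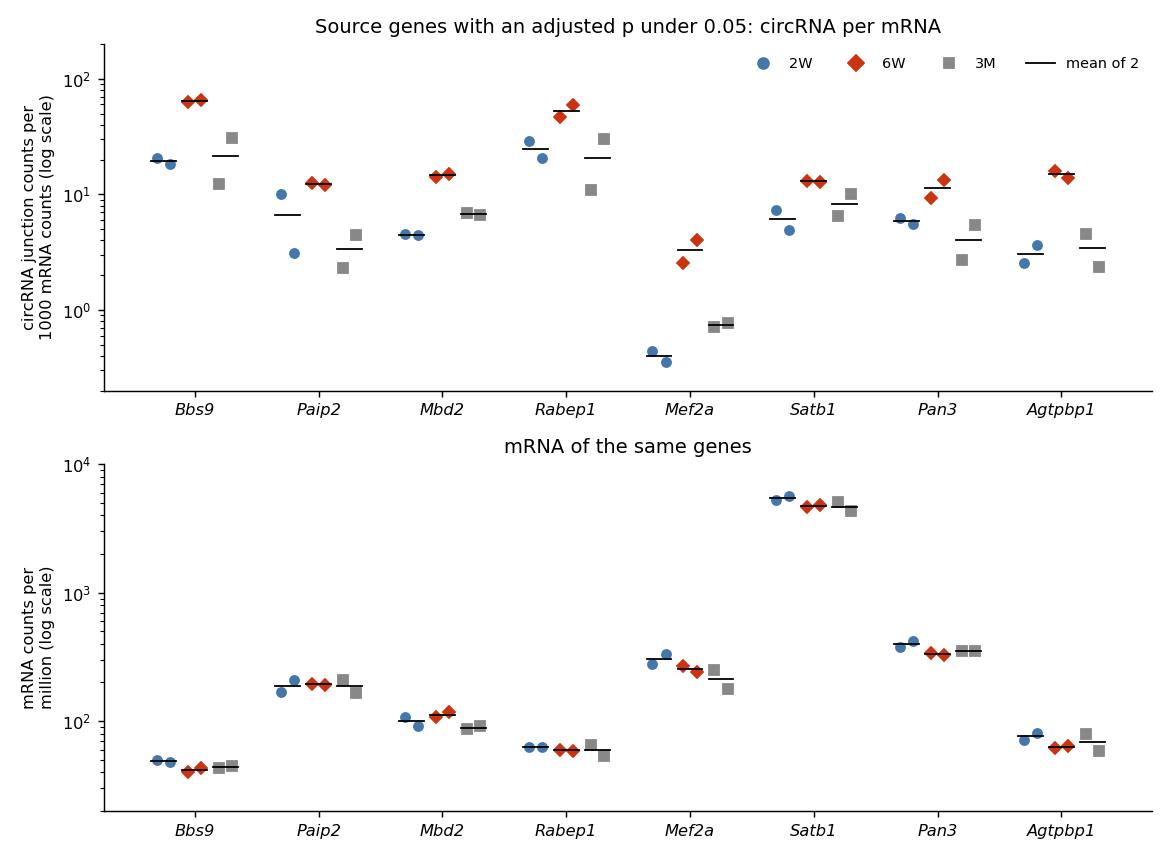
circRNA junction counts per 1000 mRNA counts (top) and mRNA CPM (bottom) of the 8 source genes with an adjusted p under 0.05 on mRNA totals or per mRNA, on log axes; each point is 1 library and each line the mean of 2 libraries of an age. In the top row the 6W points lie above those of 2W and 3M, and in the bottom row none of the 8 mRNAs passed the threshold at 6W.

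Other source genes were named on circRNA totals alone. Pank2, a kinase of coenzyme A synthesis, had 7 and 6 counts at 2W, 31 and 30 at 6W, and 12 and 9 at 3M. Ccdc6 had 0 and 4, 9 and 15, and 1 and 1, and Galnt2, which starts O-linked glycosylation, 0 and 1, 5 and 13, and 1 and 1. Pak2, a kinase activated by Cdc42 and Rac, had 3 and 15 counts at 6W, so that its 2 libraries differed widely. Tax1bp1, an autophagy receptor, Zmiz1, a transcription coactivator, and Arntl, which encodes the clock factor BMAL1, were at 0 in all 4 other libraries. At 6W they had 8 and 3, 6 and 3, and 5 and 4 counts. These 3 genes, Galnt2 and Pak2 reached the minimum of 6 counts only through the 6W libraries, so that their values are a description.

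Lower on circRNA totals was Lmnb1, the gene of lamin B1, with 20 and 22 counts at 2W, 5 and 11 at 6W, and 8 and 11 at 3M. On mRNA totals its groups overlapped, with a level of 0.244 and 0.488 at 6W and 0.476 and 0.505 at 3M. Its counted junctions are intronic calls and an antisense call over nearly the same bases, and no exon circle of Lmnb1 had 6 counts. Ythdf2, a reader of N6-methyladenosine, had 4 and 11, 0 and 1, and 2 and 3. Nr3c1, the glucocorticoid receptor gene, had 2 and 6, 1 and 1, and 8 and 6. Lef1 had 5 and 5, 1 and 1, and 4 and 6. The remaining low genes of this list were Gfra1, Mcoln1, Calr, Nfat5, Znrf3 and Ecpas, with 8 counts or fewer in every 6W library. Ythdf2, Nr3c1, Lef1 and any other gene here with fewer than 6 counts at 6W reached the minimum only through the 2W and 3M libraries. Their values are a description. In 3 of the 10 genes the mRNA at 6W also lay below all other libraries, as it did for 228 of all 1742 source genes with a tested mRNA. Gfra1 encodes a receptor for GDNF, and its mRNA was 35.0 and 31.3 CPM at 6W and 55.1 to 60.4 at the other ages, a log2 fold change of -0.81 that did not reach the threshold. Nfat5, a transcription factor of osmotic stress, had 192 and 208 CPM against 223 to 326 (-0.37), and Ythdf2 126 and 132 against 137 to 152 (-0.17). None of these 10 had an adjusted p under 0.05 by edgeR.

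Gene lists were described by how many of their source genes were called on mRNA totals, where 6.82% of all tested source genes were higher, 0.573% lower and the median log2 fold change was 0.48. On circRNA totals, where 2.06% were higher and 2.01% lower, the numbers of calls differed for most lists. The T lineage list had 0 higher and 1 lower (median 0.13), cell division 1 and 0 (0.33), chromatin 0 and 0 (-0.04), stroma 1 and 1 (0.01), the widely studied genes 0 and 0 (-0.15) and the regulators of circRNA formation and decay 0 and 2 (-0.69). The summed RPM of the T lineage list overlapped between the groups on that scale, and that of cell division, 10886 and 11043 at 6W against 8119 to 10794, did not. Lef1 of the T lineage list and Ythdf2 of the regulators of circRNA formation and decay were called lower on both scales. The values that follow are on mRNA totals. Of 23 tested regulators of the T lineage and of T cell receptor signalling, 2 were higher and 1 lower, with a median of 0.62. Their summed level was 79.4 and 67.9 at 2W, 108 and 113 at 6W, and 65.7 and 80.9 at 3M. Satb1 makes up much of this sum. Foxp1, a forkhead factor of T cell quiescence, had a level of 0.605 and 0.294 at 2W, 1.17 and 1.68 at 6W, and 0.953 and 0.551 at 3M (log2 fold change 1.25). The other called genes were Tox (1.18), whose groups overlapped, and Lef1 (-2.42). Lef1 reached the minimum for testing only through the 2W and 3M libraries. Ikzf1, which encodes Ikaros, had 0.908 and 1.88, 3.03 and 3.90, and 2.80 and 1.61 (0.95, short of the threshold). Bcl11b, needed for T lineage commitment, overlapped, with 6.36 and 8.91 at 6W and 1.73 to 7.51 at the other ages.

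Source genes of cell division had a median of 0.76 over 23 genes tested, with 3 higher and 0 lower. Their sums were 5.75 and 7.05 at 2W, 9.97 and 10.7 at 6W, and 5.96 and 5.74 at 3M, so that the groups did not overlap. The 3 called were Ckap5, a microtubule polymerase of the spindle (1.16), Smc4, a condensin subunit (1.29), and the spindle motor Kif11 (3.69). Kif11 reached the minimum for testing only through the 6W libraries, so that its value is a description. The summed mRNA of the list was 10300 and 10010 CPM at 6W, 11445 and 12101 at 2W, and 9697 and 7851 at 3M.

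Among 35 chromatin regulators 4 were higher and 0 lower, with a median of 0.47. The called genes were Ehmt1 (1.07), Ep300 (1.20), Dnmt3a (2.25) and Kmt2c (1.61), which encode enzymes that methylate or acetylate histones or methylate DNA. For Ehmt1, Ep300 and Kmt2c the groups overlapped, since 1 of the 6W libraries held most of the counts. Kat6b, a histone acetyltransferase gene, had 1.76 in each 2W library, 2.88 and 2.97 at 6W, and 1.97 and 1.79 at 3M without passing the threshold. Of 16 genes widely studied as circRNA sources, 0 were called in either direction and the median was 0.33. Hipk3, the source of a well known exon circle, had 2.18 and 2.06, 4.01 and 3.33, and 2.20 and 2.20 (0.76), and Fbxw7, a ubiquitin ligase subunit, 1.09 and 0.881, 1.96 and 1.37, and 0.834 and 1.01 (0.79). In these 2 of the 16 genes 6W lay above all others, and in the other 14 the groups overlapped, where 18.9% of all tested source genes were above. In 8 genes of stroma, vessels and matrix, 1 was higher and 0 lower, with a median of 0.50. The called one was Tns1, whose 7 counts all came from the second 6W library. No difference between lists was tested.

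Factors that act on circRNA formation and decay were also looked up in mRNA. Of 27 such genes 25 were tested, 0 passed the threshold, where 0.696% of all mRNAs did, and 2 had an unadjusted p under 0.05 by edgeR, as 618 of all 14805 mRNAs had. The 2 were Dis3, an exosome nuclease, with a log2 fold change of -0.48, and the splicing factor gene Sfpq with -0.38. Adar, whose RNA editing opposes the pairing of introns, had 140 and 149 CPM at 6W, 108 to 126 at 2W and 169 to 190 at 3M. Dhx9, a helicase that unwinds paired introns, had 541 and 517 at 6W and 542 to 644 at the other ages. Summed over the list, the mRNA was 7229 and 7261 CPM at 6W and 7349 to 8178 at the other ages. This sum was below all others at 6W by a small margin. As source genes, 10 of the 27 were tested, with 1 higher (Tnrc6b), 1 lower (Ythdf2) and a median log2 fold change of -0.22 on mRNA totals. Ythdf2 reached the minimum for testing only through the 2W and 3M libraries.

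Markers of the cell types of the thymus were summed in mRNA beside these results. In 10 of the 13 marker lists the 6W libraries overlapped with the others. Double-positive thymocyte markers were 12627 and 12515 CPM at 6W and 10994 to 14764 at the other ages, and cycling cell markers 2994 and 3033 against 2047 to 3556. Mature thymocyte markers were 983 and 973 against 911 to 966, B cell markers 71.0 and 61.0 against 41.4 to 56.4, and both were above all others at 6W. Red blood cell markers were 485 and 403 against 505 to 2213, the highest in the second 3M library. Of the markers in these 3 lists, 2 mature thymocyte genes and no B cell or red blood cell gene have a listed circRNA. The part of cell composition in the circRNA content was not tested.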

How the data were processed

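Long RNA libraries of thymus at 3 ages were analysed from the deposited tables. The deposited circRNA table holds junction counts, and RPM values that scale these counts to 1000000 in each library. Estimated counts of mRNA and lncRNA transcripts, as deposited, were summed by gene symbol and rounded, and the 372 mRNA transcripts without a symbol (0.894% of counts) entered the totals but no test. The submitters' processing notes name Bowtie 0.12.2 and mm8 without a role. The circRNA caller was not given in the sources used here. Tests used R 4.3.3 with edgeR 4.0.16 (quasi-likelihood F test, prior count 0.125, 2 groups, minimum of 6 circRNA counts, 10 mRNA counts per library for the ratio), and DESeq2 1.42.0 as an alternative, and were tested on simulated data. The call threshold is that of the study. P-values were adjusted by Benjamini-Hochberg over all features of a fit. The paper describes the libraries of an age as biological replicates, and the number of animals behind each library was not given in the sources used here. Named were the 10 circRNAs and source genes of each direction with the smallest p past the threshold whose groups did not overlap, any with an adjusted p under 0.05, 3 of each direction on mRNA totals and per mRNA, and list members with small p. Bbs9, Rb1, Mbd2, Lef1, Lmnb1 and Satb1 were opened by junction, and the most counted circRNAs shown, after their values were seen. The members and lists were chosen with earlier results of these data known.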

Additional observations from a re-analysis of the deposited data

Results flagged for a closer look

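Each value was checked for 1 of the 4 libraries of 2W and 3M that stands apart from the other 3, by Dixon's test at 95%. Of 60 checks 9 found one, and chance flags about 1 in 20 groups. The second 3M library was the highest in its 21789959 mRNA counts, its 15396 circRNA junction counts and its 3105 detected circRNAs. It was also the highest in circRNAs of several exons (a level of 519 per 1000000 mRNA counts), in those with a spliced length over 300 to 500 bases (166) and in those with 30 to 99 counts in all (116). The circRNAs of Gfra1 were lowest there, with 455 RPM. In the first 3M library the share of junction counts between genes was the highest, at 4.53%. The circRNAs of Paip2 were highest in the first 2W library, with 2626 RPM.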

How the results depend on the processing

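Alternatives are given as counts of calls past the threshold, and the cause of a change was not tested. DESeq2 used its own size factors, so that 1 fit stands against both scales and both test and scaling differ: it called 52 circRNAs and 31 source genes. On circRNA totals, the 148 circRNAs became 22 with a minimum of 30 counts (482 tested), and 53 to 152 with each library left out. On mRNA totals, the 178 became 60 and 75 to 219. Of the source genes, the 71 on circRNA totals became 19 (564 tested) and 37 to 81, and the 129 on mRNA totals 63 and 65 to 143, and 75 with TMM factors. The 145 genes of circRNA per mRNA became 82 with the stricter minimum and 82 to 183 with a library left out. The 103 mRNAs became 241 with 3 ages as groups, 203 without a filter and 64 to 184 with a library left out. At an adjusted p under 0.05, TMM factors left 0 circRNAs on either scale, DESeq2 gave 3, and 3 ages as groups gave 3 on circRNA totals. Each library left out gave 0 to 4 circRNAs on circRNA totals and 0 to 7 on mRNA totals, 0 to 1 and 0 to 12 source genes, and 0 to 25 genes per mRNA. On mRNA totals, the 2 circRNAs became 13 with 3 ages as groups, 1 without a filter and 0 with the stricter minimum, and the 6 source genes 26, 3 and 9, 0 with TMM factors or DESeq2, and 10 with exon-containing circRNAs alone, chosen after seeing the data. Per mRNA the 6 became 26, 2 and 25. DESeq2 gave 12 mRNAs. The ratio of circRNA content was 1.37 to 1.46 with each library left out. Replicate numbers were checked for pairing with 1 correlation per pair of ages, at -0.03 to 0.03 in circRNAs and -0.13 to 0.34 in mRNAs. These are not correlations between whole libraries, which were 0.34 to 0.49 in circRNAs (Spearman). The main fits assumed no pairing by number. With a replicate block the calls were 83 and 141 circRNAs, 41 and 99 source genes, 83 mRNAs and 120 genes per mRNA, with 0 circRNAs, 2 source genes and 1 gene per mRNA at an adjusted p under 0.05 on mRNA totals. Without the second 6W library the log2 fold change of Gfra1 circRNA per mRNA turned to 0.28, from -0.38, and without the first it was -1.66. A median of 2 to 3 counts per detected circRNA in a library limits what single circRNAs can show.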
